A study of Mus musculus with 6 samples.

Results

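Zinc finger genes numbered Zfp900 to Zfp999 were followed in whole mouse ovary after hypobaric hypoxia. A gene belonged to the set when its symbol in the deposited expression table was Zfp followed by a 3-digit number that starts with 9, which 60 of 33036 features met, running from Zfp930 to Zfp995. Of the 60, 52 had a level of at least 1 TPM in at least 3 of the 6 libraries (TPM, a level corrected for transcript length and scaled to a fixed total in each library). Zfp949 alone held over 10% of all TPM in every library, so it is described apart from the other 51. All 60 are annotated as protein coding in RefSeq.

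The study asked what hypobaric hypoxia does to the ovary's transcripts and compared 2 groups of 3 RNA-seq libraries from female C57BL/6J mice, 15 mice to a group. The hypobaric hypoxia group lived in a chamber at 43.12 kPa with oxygen at 8.1 kPa, labelled as an altitude of 6500 m by the titles but 5000 m by the descriptions. The normal pressure group stayed in Lanzhou at 83.56 kPa with oxygen at 17.8 kPa, where the altitude is labelled 1500 m by the titles but 1588 m by the design text. Ages are given as 8 weeks or from 6 weeks upward, and the stay as 15 days in the design text but 15, 16 and 17 days for replicates 1, 2 and 3. Both groups had their cycles synchronised by gavage with levonorgestrel and ethinylestradiol, with doses of 0.1 and 0.02 mg/kg stated for the hypoxia mice and no dose stated for the others. The light and dark hours differ between the normal pressure labels (12 and 12, 12 and 13, and 12 and 14 for replicates 1, 2 and 3), whereas all hypoxia labels have 12 and 12. How many of the mice contributed to a library is not stated, so the spread that the p-values rest on is that between libraries and may be technical.

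Most genes with these numbers encode KRAB zinc finger proteins, a large and fast-evolving family that in rodents sits in clusters of recent gene copies. Their tandem C2H2 zinc fingers read DNA, often in endogenous retroviruses and other repeats, and the KRAB domain recruits the scaffold protein TRIM28 (KAP1). TRIM28 in turn brings the histone methyltransferase SETDB1, heterochromatin proteins and the NuRD complex, and the bound DNA is silenced by histone H3 lysine 9 methylation and DNA methylation. In oocytes and early embryos, members of the family are known to guard imprinted regions and to restrain retrotransposons.

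Whole ovary holds many cell types, and in such bulk tissue fewer cells of a type and less RNA per cell cannot be told apart. Genes that mark the corpus luteum were lower in hypoxia for 10 of 10 tested, with a summed level of 2.05e+03 to 2.71e+03 TPM in the hypoxia libraries and 4.89e+03 to 7.49e+03 TPM in the normal pressure libraries. Oocyte markers were higher for 13 of 13 tested (summed level of all 15 listed, 234 to 287 TPM in hypoxia and 143 to 182 TPM at normal pressure), and erythroid markers for 5 of 5 (1.66e+03 to 2.24e+03 TPM against 247 to 447 TPM). Theca and interstitial markers were higher for 4 of 5, while 2 of 10 granulosa markers were higher and 2 lower. Called or not, the fold change was above 0 for 5 of 5 theca and interstitial and 7 of 10 granulosa markers (beside 63.2% of all features). Oviduct markers were lower for 2 of 4 tested and adipose markers for 4 of 4, with 0 fold changes above 0 in either list. The 5 lymphocyte markers summed to 1.69 to 2.53 TPM in hypoxia and 1.82 to 2.47 TPM at normal pressure and were too low to test. The part of these marker lists in the zinc finger results was not tested. Normal pressure replicate 2 stood apart: protein-coding genes other than Zfp949 held 37.3% of its TPM, against 42.2% to 44.1% in the 3 hypoxia libraries and 43.6% and 45.7% in the other normal pressure libraries.

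The Zfp949 row held by far the highest values of the set, on average 2.25e+03 times the next one. It reached 10.8%, 10.2% and 13.7% of TPM in hypoxia replicates 1, 2 and 3, against 16.3%, 15.2% and 14.5% in normal pressure replicates 1, 2 and 3. Every hypoxia library lay below every normal pressure library, and the difference, hypoxia minus normal pressure, was -3.76 percentage points (11.6% ± 1.85 in hypoxia and 15.3% ± 0.917 at normal pressure, SD, n = 3 each; two-sided exact permutation p = 0.100, the smallest that 3 against 3 can give). On the log2(TPM + 1) scale the difference was -0.42 with a standard error of 0.34 and did not pass (limma, adjusted p = 0.429). That adjusted p depended on the fit, at 0.0735 with robust variance and 0.943 with no level filter. Set against all other protein-coding genes, the ratio was 0.245, 0.235 and 0.324 in hypoxia and 0.374, 0.407 and 0.317 at normal pressure, and the groups then overlapped (exact permutation p = 0.200). Rn7sk, the gene of the abundant 7SK small nuclear RNA, held 2.17% to 2.91% of TPM in hypoxia and 2.5% to 3.55% at normal pressure.

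Zfp949 lies on the plus strand of chromosome 9 at chr9:88548020-88571061 (GRCm38, GENCODE vM21), with 5 annotated transcripts and a protein of 603 residues with 11 C2H2 fingers. No stretch of 75 bases of the transcript with its longest coding sequence occurs in a transcript of another gene. The level of the row is far above that of the other zinc finger genes, and the TPM table does not show which reads it holds. The row is therefore not read as expression of the Zfp949 protein gene.

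**Figure D1:**
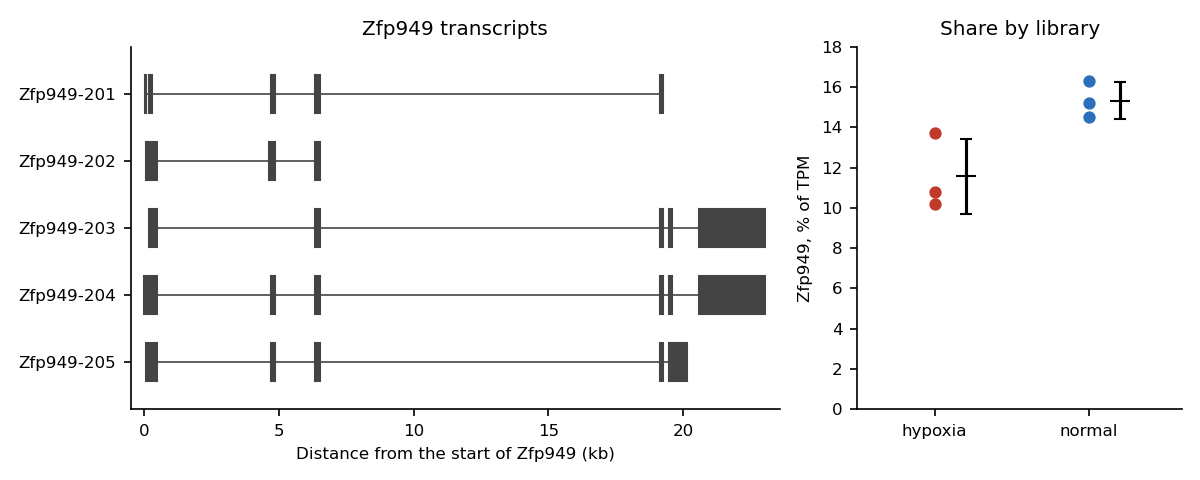
Left, the 5 annotated Zfp949 transcripts (boxes, exons) by distance from the gene's start in kilobases. Right, the Zfp949 row's percent of TPM in each library (points) with mean ± SD, 11.6% ± 1.85 in hypoxia and 15.3% ± 0.917 at normal pressure, with no overlap.

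The other 51 genes were expressed at low levels. Their mean over the 6 libraries ran from 1.23 to 59.6 TPM, with a median of 4.86 TPM, while the median of all 17120 tested features was 10.4 TPM. Of the 51, 12 averaged at least 10 TPM, 13 averaged 5 to 10 TPM and 26 averaged less than 5 TPM. All but 2 (49) were at or above 1 TPM in every library, and 0 passed the level filter through 1 group only. Of the 8 genes below the filter (Zfp936, Zfp941, Zfp947, Zfp968, Zfp980, Zfp985, Zfp987 and Zfp990), those nearest to it were Zfp947, for which the third highest library had 0.86 TPM, and Zfp936, at 0.65 TPM. The nearest genes inside it were Zfp957 at 1.23 TPM and Zfp979 at 1.52 TPM.

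**Figure D2:**
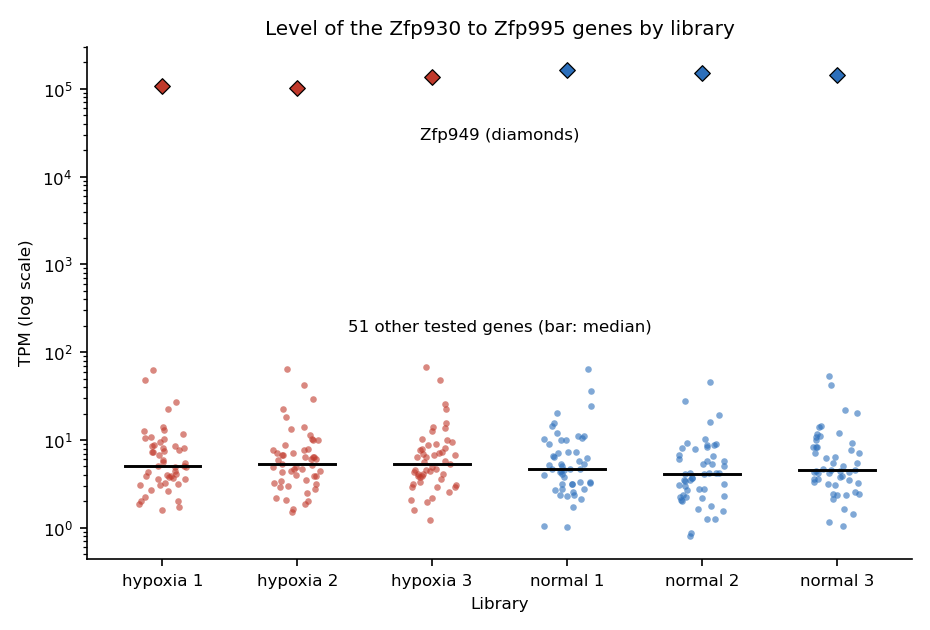
Level in TPM (log scale) of each tested gene (points) in each library, with the median of the 51 genes as a bar and Zfp949 as diamonds. The medians were 5.12, 5.29 and 5.35 TPM in hypoxia replicates 1, 2 and 3 and 4.71, 4.14 and 4.56 TPM in normal pressure replicates 1, 2 and 3.

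The 5 most abundant of the 51 were Zfp946, Zfp950, Zfp971, Zfp970 and Zfp991, of which Zfp950 passed the test. Zfp946, from the chromosome 17 cluster, had 62.9, 63.6 and 68.6 TPM in hypoxia against 64.2, 45.2 and 53.2 TPM at normal pressure. Normal pressure replicate 1 reached the hypoxia values, so the groups overlapped (log2 fold change 0.27, SE 0.12; limma, adjusted p = 0.145). Zfp971 had 27.3, 29.1 and 25.8 TPM in hypoxia against 24.5, 19.2 and 21.9 TPM at normal pressure. Zfp970, like it on chromosome 2, had 22.3, 22.7 and 22.5 TPM in hypoxia against 20.4, 16.2 and 20.4 TPM at normal pressure. For both, every hypoxia library lay above every normal pressure library, and neither difference passed (log2 fold changes 0.32 and 0.24; limma, adjusted p = 0.0677 and 0.162). Zfp991 from chromosome 4 had 14.2, 14.0 and 14.0 TPM in hypoxia against 15.5, 8.23 and 12.1 TPM at normal pressure, with the normal pressure libraries on both sides of the hypoxia ones.

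Under hypoxia, 8 of the 51 genes passed the test, 6 higher and 2 lower. Zfp982, Zfp963, Zfp967, Zfp934, Zfp975 and Zfp950 rose, and Zfp948 and Zfp983, near each other on chromosome 17, fell. The 8 are 15.7% of the 51, close to the 18.3% of all 17120 features that passed in either direction (limma on log2(TPM + 1), Benjamini-Hochberg adjusted p under 0.05). The 6 higher genes are 11.8% of the 51, beside 11.1% of all features called higher, and the 2 lower ones are 3.92%, beside 7.20%. Before adjustment, 12 were higher and 2 lower at p under 0.05, beside 5482 of all 17120 features in either direction (limma). None of the 51 changed as much as 2-fold. The number of zinc finger genes called is therefore near the background share. Over all features, 60.7% of the calls were higher in hypoxia, against 47.0% when the libraries were rescaled without Zfp949 and 46.8% with median-ratio scaling. Of the 6 zinc finger genes called higher, Zfp934 and Zfp982 stayed called after rescaling without Zfp949, and both genes called lower did.

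The 51 fold changes were small and mostly of one sign. The fitted log2 fold change was above 0 for 46 of 51 genes (90.2%, beside 63.2% of all features) and the median was 0.22, with quartiles of 0.14 and 0.27, beside 0.08 over all features. Each carried a standard error of 0.11 to 0.17. Every hypoxia library lay above every normal pressure library for 23 genes (45.1%, beside 27.6% of all features), and below for 2 (3.92%, beside 11.6%), where 39.2% of all features separated in either direction. Of the 304 other numbered Zfp genes in the table, 282 were tested: 248 (87.9%) were above 0 with a median of 0.16, 21 (7.45%) were called higher and 3 (1.06%) lower. For 122 of these 282 every hypoxia library lay above every normal pressure library, and for 3 below.

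**Figure D3:**
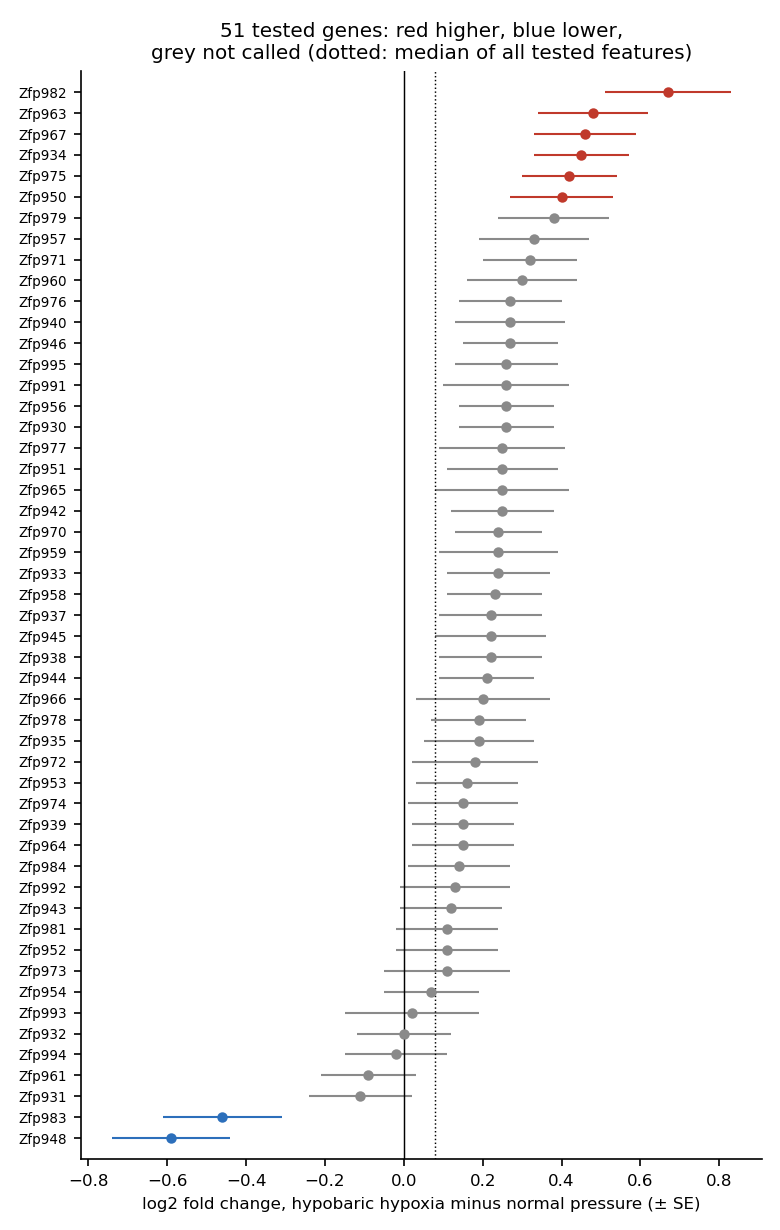
Fitted log2 fold change, hypobaric hypoxia minus normal pressure, on log2(TPM + 1) for the 51 genes (points, bars ± SE), red where called higher, blue where called lower and grey where not called. The dotted line is the median of all tested features, 0.08, and 46 of the 51 points lie above 0.

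A single control library was low for most of these genes. Normal pressure replicate 2 held the lowest value of 44 of the 51 genes (86.3%), and of 62.9% of all tested features. The 51 genes summed to 438, 432 and 442 TPM in hypoxia and to 410, 311 and 397 TPM at normal pressure, so replicate 2 was low and the other normal pressure libraries were nearer to hypoxia. Taken as a share of the TPM of protein-coding genes other than Zfp949, the same sums were 0.0996%, 0.0995% and 0.105% in hypoxia and 0.0941%, 0.0834% and 0.0869% at normal pressure, with no overlap between groups. Without that library, the median fold change of the 51 was 0.13 (all features, 0.00) and 42 of 51 were above 0. The calls were then 2 higher, Zfp934 and Zfp975, and the same 2 lower. Of all features, 10.9% were called higher and 12.6% lower in that fit. Leaving out hypoxia replicate 1 also reduced the genes called higher to 2, Zfp967 and Zfp982, where 7.34% of all features were called higher. The median was then 0.20, with 45 of 51 above 0.

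**Figure D4:**
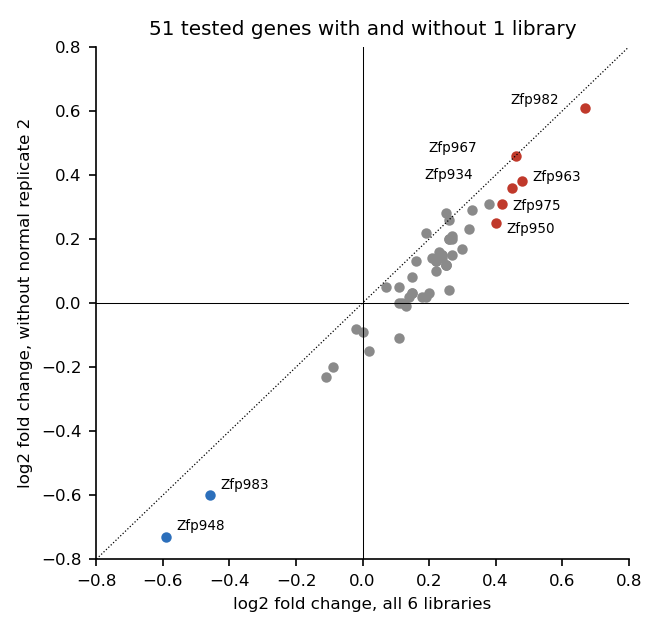
Log2 fold change of the 51 genes in all 6 libraries (x axis) and without normal pressure replicate 2 (y axis), with the genes called in all 6 named (red higher, blue lower). Most points lie below the dotted line of equal values, with the median at 0.22 with the library and 0.13 without it.

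Among the genes called higher, Zfp982 on chromosome 4 differed most. It had 10.8, 18.2 and 15.5 TPM in hypoxia against 10.1, 8.01 and 8.31 TPM at normal pressure (14.8 ± 3.78 and 8.80 ± 1.11 TPM, SD, n = 3 each). Hypoxia replicate 1 lay just above the highest normal pressure library, and replicates 2 and 3 stood well clear. The log2 fold change was 0.67 with an SE of 0.16, a factor of 1.59 (limma, adjusted p = 0.00773). The call was lost without normal pressure replicate 2 (log2 fold change 0.61, adjusted p = 0.0740).

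Zfp963 on chromosome 8 had 8.62, 6.44 and 6.96 TPM in hypoxia against 5.76, 4.15 and 5.04 TPM at normal pressure. The lowest hypoxia library was above the highest normal pressure library (log2 fold change 0.48, SE 0.14; limma, adjusted p = 0.0244). It was no longer called without hypoxia replicate 1 (0.37, adjusted p = 0.135) or without normal pressure replicate 2 (0.38, adjusted p = 0.0759). Its transcript shares 39.1% of its 75-base stretches with other genes, chiefly the gene model Gm20422.

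Zfp934 on chromosome 13 had 7.26, 7.05 and 6.74 TPM in hypoxia against 5.09, 4.18 and 5.41 TPM at normal pressure. Its hypoxia libraries lay close together and above all the normal pressure ones (log2 fold change 0.45, SE 0.12; limma, adjusted p = 0.0190). Of its stretches, 27.7% occur in other genes, most in Zfp808, a zinc finger gene of the same chromosome that was itself called higher (0.51, adjusted p = 0.00972). The call was lost without hypoxia replicate 1 (0.43, adjusted p = 0.0713).

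Zfp975 on chromosome 7 had 12.9, 13.2 and 12.8 TPM in hypoxia against 10.6, 7.91 and 9.91 TPM at normal pressure. The groups did not overlap (log2 fold change 0.42, SE 0.12; limma, adjusted p = 0.0234), and the call was lost without hypoxia replicate 1 or 2 (adjusted p = 0.0580 and 0.0630). Zfp950 on chromosome 19, one of the most abundant of the 51, had 48.5, 42.0 and 48.7 TPM in hypoxia against 36.1, 28 and 41.8 TPM at normal pressure. Hypoxia replicate 2 and normal pressure replicate 3 almost touched (log2 fold change 0.40, SE 0.13; limma, adjusted p = 0.0490). The call did not survive leaving out normal pressure replicate 2 (0.25, adjusted p = 0.103), hypoxia replicate 1 (0.37, adjusted p = 0.0972) or hypoxia replicate 3 (0.36, adjusted p = 0.0840). No 75-base stretch of Zfp950 is shared, but its locus overlaps the RefSeq genes Gm4238 and Grk5.

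Zfp967 and Zfp966 on chromosome 2 are copies of each other. Zfp967 had 12.8, 11.5 and 13.7 TPM in hypoxia against 10.4, 8.94 and 7.61 TPM at normal pressure, with no overlap (log2 fold change 0.46, SE 0.13; limma, adjusted p = 0.0200). Zfp966 had 8.14, 8.76 and 6.67 TPM in hypoxia against 6.29, 5.07 and 9.24 TPM at normal pressure, with overlap (0.20; adjusted p = 0.433). Every 75-base stretch of the annotated Zfp967 transcript also occurs in Zfp966, so how reads were divided between them is uncertain. Zfp966 in turn shares 65.5% of its stretches with Zfp968, which did not pass the level filter. The sum of Zfp966 and Zfp967, which still depends on the division because TPM is corrected for transcript lengths that differ (2939 and 1458 bases), was 20.9, 20.2 and 20.3 TPM in hypoxia against 16.7, 14.0 and 16.9 TPM at normal pressure, 1.29 times higher in hypoxia (20.5 ± 0.384 and 15.8 ± 1.59 TPM, SD, n = 3 each; two-sided exact permutation p = 0.100, the smallest possible). The Zfp967 call was lost when normal pressure replicate 3 or hypoxia replicate 3 was left out (limma, adjusted p = 0.0735 and 0.0618), and its adjusted p sat at the threshold of 0.05 when normal pressure replicate 2 was.

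The 2 genes that fell lie near each other on chromosome 17, with no other tested gene between them, Zfp948 at chr17:21565816-21589324 and Zfp983 at chr17:21650572-21664966 (GRCm38.p6). Zfp948, with 15 fingers, had 9.38, 6.66 and 8.69 TPM in hypoxia against 14.4, 10.3 and 14.1 TPM at normal pressure (8.24 ± 1.41 and 12.9 ± 2.29 TPM, SD, n = 3 each). All hypoxia libraries were below all normal pressure libraries, and the log2 fold change was -0.59 with an SE of 0.15 (limma, adjusted p = 0.0110). The call was kept in each of the 6 fits that left out 1 library. Zfp983, with 11 fingers, had 7.78, 7.17 and 8.00 TPM in hypoxia against 10.1, 8.77 and 14.4 TPM at normal pressure. The groups did not overlap, though normal pressure replicate 3 stood far above the rest (log2 fold change -0.46, SE 0.15; limma, adjusted p = 0.0420). Without that library the log2 fold change was -0.27 and did not pass (adjusted p = 0.164), and the call was also lost without hypoxia replicate 2 (-0.42, adjusted p = 0.0624).

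The neighbouring gene Zfp52, which ends just before Zfp948 begins and was looked at after these values were seen, had 8.38, 7.77 and 7.17 TPM in hypoxia against 14.8, 11.0 and 16.9 TPM at normal pressure. It too was lower in every hypoxia library (log2 fold change -0.78, SE 0.14; limma, adjusted p = 0.00124), and it passed under every alternative tried, at -0.94 to -0.65. Zfp52, Zfp948 and Zfp983 are consecutive among the tested genes of this stretch, and among all 333 tested zinc finger genes with a Zfp number apart from Zfp949 the other 2 called lower were Zfp469 on chromosome 8 and Zfp786 on chromosome 6. Beyond them the stretch did not share the fall. On one side Zfp53, Zfp51 and Zfp54 had log2 fold changes of -0.02, 0.16 and -0.03, and on the other Gm10509, Zfp760 and Zfp229 had -0.22, 0.28 and 0.19, none of them called (limma, adjusted p of 0.145 to 0.924). No 75-base stretch of Zfp948 and 4.07% of those of Zfp983 occur in other genes.

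**Figure D5:**
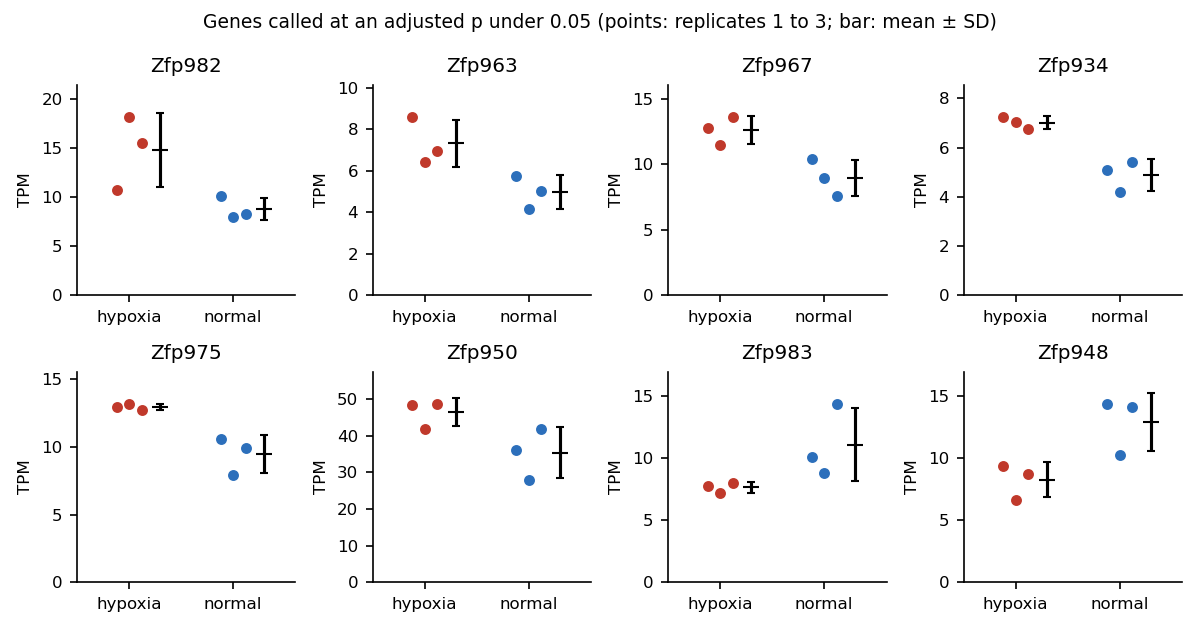
TPM in each library (points, replicates 1 to 3 from left to right) of the 8 called genes, hypoxia left and normal pressure right, with mean ± SD as bars. In all 8 panels the groups do not overlap, with Zfp982 at 14.8 ± 3.78 and 8.80 ± 1.11 TPM and Zfp948 at 8.24 ± 1.41 and 12.9 ± 2.29 TPM.

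Promoter sequences were examined because copies in a cluster can share their start regions as well as their coding regions. RefSeq promoters (GRCm38.p6, 250 bases before to 50 after the start) were available for 46 of the 52 genes that passed the level filter, Zfp949 included. The CCAAT box, a common promoter element read by the factor NF-Y, was searched as CCAAT on both strands and occurred in 33 of the 46 (71.7%), beside 37.9% of 27025 promoters. The hypoxia response element is bound by hypoxia-inducible factors at a core searched as ACGTG and GCGTG on both strands. ACGTG occurred in 11 promoters (23.9%, beside 19.7% of all) and GCGTG in 11 (23.9%, beside 32.5%). CACGTG, an E-box that contains ACGTG, occurred in 6 (13.0%, beside 7.24%), and TATAAA in 0 (beside 14.2%). Copies share ancestry, so these promoters are not independent sequences.

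The promoters of the neighbours that fell and of a pair of abundant chromosome 2 copies show both kinds, with capitals at CCAAT or ACGTG on either strand. They are Zfp948 (chr17:21566728-21567027, plus strand), Zfp983 (chr17:21650361-21650660, plus strand), Zfp967 (chr2:176520754-176521053, plus strand) and Zfp971 (chr2:178023034-178023333, plus strand):
Zfp948: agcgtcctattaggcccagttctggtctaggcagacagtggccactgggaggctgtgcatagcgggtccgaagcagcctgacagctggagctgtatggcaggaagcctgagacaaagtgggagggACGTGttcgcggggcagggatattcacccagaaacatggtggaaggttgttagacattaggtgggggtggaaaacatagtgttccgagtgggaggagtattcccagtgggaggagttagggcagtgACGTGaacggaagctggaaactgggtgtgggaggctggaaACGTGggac
Zfp983: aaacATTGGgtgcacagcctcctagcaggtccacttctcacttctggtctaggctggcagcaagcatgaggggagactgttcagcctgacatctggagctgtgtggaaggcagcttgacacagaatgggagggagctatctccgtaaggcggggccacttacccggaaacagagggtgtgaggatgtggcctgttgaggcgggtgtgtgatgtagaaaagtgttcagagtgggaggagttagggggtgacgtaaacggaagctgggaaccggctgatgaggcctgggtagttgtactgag
Zfp967: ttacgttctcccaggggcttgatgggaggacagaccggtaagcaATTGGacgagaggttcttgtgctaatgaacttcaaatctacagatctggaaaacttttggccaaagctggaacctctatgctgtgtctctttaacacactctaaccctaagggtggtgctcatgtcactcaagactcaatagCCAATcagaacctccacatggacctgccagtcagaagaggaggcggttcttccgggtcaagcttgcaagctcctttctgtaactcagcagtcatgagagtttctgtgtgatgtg
Zfp971: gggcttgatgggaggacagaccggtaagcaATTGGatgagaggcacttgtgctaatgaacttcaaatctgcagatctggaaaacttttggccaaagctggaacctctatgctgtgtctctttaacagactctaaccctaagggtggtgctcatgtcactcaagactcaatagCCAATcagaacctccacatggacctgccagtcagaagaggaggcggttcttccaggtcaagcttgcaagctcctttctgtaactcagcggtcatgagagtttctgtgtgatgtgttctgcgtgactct

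The Zfp948 window held 3 ACGTG matches and the Zfp983 window held none and 1 CCAAT match, and when aligned 65.3% of their bases were identical. The Zfp948 window begins at 21566728, inside the gene span that begins at 21565816, so it surrounds a listed start within the gene and not the span's first base. The Zfp967 and Zfp971 windows held 2 CCAAT matches each and were 93.0% identical, and the Zfp966 window equals that of Zfp967 in all 300 bases. Among the called genes with a window, ACGTG occurred in that of Zfp948 alone and GCGTG in that of Zfp950 alone. The Zfp971 window also held GCGTG, which is not in capitals above.

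Zfp931 on chromosome 2 had the lowest fold change of the uncalled genes among the 51. It had 8.02, 6.74 and 7.07 TPM in hypoxia against 9.05, 6.57 and 8.38 TPM at normal pressure, and the groups overlapped (-0.11; limma, adjusted p = 0.583). Zfp932, which in mouse represses endogenous retrovirus repeats together with its paralog Gm15446, had 10.6, 10.2 and 10.1 TPM in hypoxia against 11.1, 8.88 and 10.9 TPM at normal pressure, a log2 fold change of 0.00 with an SE of 0.12. The sum of Zfp932 and Gm15446 was 11.9 ± 0.478 TPM in hypoxia and 11.9 ± 1.47 TPM at normal pressure (SD, n = 3 each; exact permutation p = 1.00).

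Most of the genes lie in a few chromosomal clusters. Chromosome 17 held 12 tested genes, 9 above 0, with a median of 0.22 and a range of -0.59 to 0.30 that includes both falling genes. Chromosome 2 held 9 tested genes with a median of 0.22 (-0.11 to 0.46), chromosome 4 held 9 with a median of 0.19 (0.02 to 0.67) and chromosome 7 held 7 with a median of 0.25 (0.07 to 0.42). Chromosome 4 also had 4 of the 8 genes below the level filter. Chromosome 8 held 5 with a median of 0.23, chromosome 13 held 3 with a median of 0.19, and the other 6 were on chromosomes 5, 6, 10, 14 and 19.

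Shared sequence limits how far single copies can be read. For 49 of the 51 genes a transcript with a complete coding sequence was found in GENCODE vM21, and the proteins held 0 to 21 C2H2 fingers with a median of 11 by a pattern search, 41 of them at least 7. In 4 (Zfp935, Zfp957, Zfp972 and Zfp993) the chosen transcript held no finger by that pattern. Under 10% of 75-base stretches were shared for 25 genes, and 11 of these 25 shared none. Over 50% were shared for 8 (Zfp935, Zfp960, Zfp965, Zfp966, Zfp967, Zfp973, Zfp991 and Zfp993), of which Zfp967 alone was called. Another RefSeq gene overlapped 19 of the 51 loci. The summed pair Zfp965 and Zfp973 had 17.1, 16.5 and 18.5 TPM in hypoxia against 17.9, 12.7 and 15.6 TPM at normal pressure (exact permutation p = 0.300), and the pair Zfp991 and Zfp993 had 16.5, 16.0 and 16.9 TPM against 18.7, 9.86 and 14.4 TPM (p = 0.600). These sums too depend on how reads were divided, since the lengths differ.

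Partner genes through which KRAB zinc finger proteins act were mostly on the same side of 0. Of 44 co-repressor genes tested, 9 (20.5%) were called higher, beside 11.1% of all features, and 0 lower, beside 7.20% (limma). At p under 0.05 before adjustment, 18 were higher and 0 lower, beside 5482 of all 17120 features in either direction. The fold change was above 0 for 38 (86.4%), beside 63.2% of all features, and the median log2 fold change was 0.22, as for the 51 zinc finger genes. The scaffold Trim28 was at 112 ± 7.76 TPM in hypoxia and 91.3 ± 7.95 TPM at normal pressure, and Setdb1 at 32.6 ± 1.10 and 25.9 ± 3.65 TPM (SD, n = 3 each). Neither passed the test (log2 fold changes 0.29 and 0.33; limma, adjusted p = 0.0806 and 0.0608).

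Several of the co-repressor genes that rose are known to act in DNA methylation or H3 lysine 9 methylation. Hells, a chromatin remodeller needed for DNA methylation of repeats, had 11.5, 12.7 and 10.6 TPM in hypoxia against 7.43, 6.72 and 7.42 TPM at normal pressure (0.62; limma, adjusted p = 0.00173). Uhrf1, which brings the maintenance methyltransferase to newly copied DNA, had 28.1, 30.9 and 25.6 TPM in hypoxia against 17.3, 17.3 and 20.0 TPM at normal pressure (0.61; adjusted p = 0.00176). Dnmt1, that methyltransferase, had 43.2, 45.6 and 41.2 TPM in hypoxia against 29.7, 28.4 and 35.1 TPM at normal pressure (0.47; adjusted p = 0.00842). In all 3 the groups were clearly apart.

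The others that rose were Atf7ip2, a relative of the SETDB1 partner ATF7IP (log2 fold change 0.79), the H3 lysine 9 methyltransferases Suv39h1 and Suv39h2 (0.46 and 0.43), Rif1, which acts in replication timing and heterochromatin (0.46), Tasor of the HUSH silencing complex (0.40), and the de novo methyltransferase Dnmt3a (0.36; limma, adjusted p of 0.00171 to 0.0376 for these 6). Without hypoxia replicate 1 or 2, where 7.34% and 6.92% of all features were called higher, the called co-repressors were 4 and 5. Hells, Uhrf1, Dnmt1 and Atf7ip2 were in both. Several of these genes, Hells, Uhrf1 and Dnmt1 among them, are also known to be high in dividing cells or oocytes, and the oocyte markers rose beside them as given above. Their part in the difference was not tested. Among 15 tested KRAB zinc finger genes with known targets, 2 (13.3%, near the 11.1% of all features) were called higher and none lower. Those 2 are Zfp934 and Zfp982, already described. Of the 10 that carry other names or numbers, such as Zfp57, which protects imprinted regions, and Zfp809, which silences retroviral DNA, 0 were called (limma; 1 higher and 0 lower before adjustment).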

How the data were processed

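Whole-ovary RNA was sequenced from 3 hypobaric hypoxia and 3 normal pressure samples, grouped by title. Per the labels' protocols, RNA was column-purified and SMARTer mRNA libraries were prepared. HISAT2, Bowtie2, DESeq2 and the build GRCm38.p6 appear in the submitters' processing notes with no version or role, and the counter and annotation were not given in the sources used here. In 1 table, the authors deposited TPM values for 33036 features, and the columns sum to 998175 to 998954. TPM keeps no read depth, so no counting interval is given. Structural RNAs share the TPM total, so abundant rows shift all others.

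Values were tested as log2(TPM + 1), computed from the deposited TPM, with limma 3.58.1 (R 4.3.3, mean-variance trend, no covariate) over all 17120 features with at least 1 TPM in at least 3 libraries. P-values were Benjamini-Hochberg adjusted over all of them and called at 0.05, two-sided. The log scale with its added 1 shrinks the fold changes of low genes. The script was tested on simulated data with independent noise for each feature. Those data held no shift of a whole library, so the test does not cover such shifts. Same-numbered libraries correlated at -0.03, 0.11 and -0.05 in their deviations from the group means, and differently numbered ones at -0.08 to 0.11. With 3 libraries to a group, these values cannot exclude that the replicate numbers pair the libraries. Sums of copies and shares were compared with exact permutation tests (SciPy 1.17.1).

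The members and lists were chosen with earlier results of these data known. Per-library values are given for Zfp949, the called members, the 5 with the highest mean, and the 3 highest and 3 lowest fold changes. Of the co-repressor list, called genes are named. Trim28, Setdb1, Zfp932 and the neighbours of Zfp948 were named outside this rule, after their values were seen. Shared sequence was counted as 75-base stretches in GENCODE vM21 transcripts. Fingers were counted as Cys, 2 to 4 residues, Cys, 12 residues, His, 3 to 5 residues, His. Promoters and gene positions came from RefSeq (GRCm38.p6). Alternatives covered pseudocounts, filters, scalings, robust variance, a replicate block and leaving out each library. 1 sequence comparison at the Zfp949 locus is not reported here.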

Additional observations from a re-analysis of the deposited data

How the results depend on the processing

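Of the 51 genes, 6 were called higher and 2 lower. With no level filter 0 were called in either direction, with 33036 features tested and 1233 called in all (limma). Before adjustment, 11 of the 51 were then higher and 2 lower at p under 0.05, beside 6832 of all features in either direction. Rescaling without Zfp949 left 2 higher, Zfp934 and Zfp982, and the same 2 lower, where 7.39% and 8.35% of all features were called. Of all calls 47.0% were then higher in hypoxia, beside 60.7% in the scaling used, and median-ratio scaling gave 46.8%. Scaling by quantiles and by the protein-coding total gave 10 and 11 members higher, where 20.3% and 21.9% of all features were called higher. Median-ratio, quantile and protein-coding scaling called 5896, 6201 and 6262 features, beside 3139. Across the 4 scalings 44 or 45 of the 51 were above 0, with medians of 0.15 to 0.22. Leaving out 1 library at a time gave 2065 to 3998 features called, 2 to 9 members higher and 1 or 2 lower. In these fits 6.92% to 12.1% of all features were called higher. The lowest count of members higher, 2, came when normal pressure replicate 2 or hypoxia replicate 1 was left out, and with normal pressure replicate 2 left out 46.4% of all calls were higher. Zfp948 kept its call in 15 of 16 alternatives (-0.73 to -0.46, adjusted p 4.25e-05 to 0.107), Zfp934 and Zfp982 in 14, Zfp983 in 13, Zfp963 and Zfp975 in 12, Zfp950 in 9 and Zfp967 in 8. No called gene changed sign, and the causes of the lost calls were not tested. The co-repressors called higher numbered 4 to 11 when 1 library was left out, with up to 2 lower. Under the other scalings 6 to 23 were higher, with up to 3 lower, where 7.39% to 21.9% of all features were called higher. A fit with the replicate number as a block called 4117 features and 8 of the 51 higher and 2 lower, adding Zfp971 and Zfp979. Of all features, 14.7% were called higher and 9.32% lower in that fit. Whether the numbers pair the libraries is not known. The Zfp949 log2 fold change was -0.48 when rescaled without Zfp949, -0.51 with median-ratio scaling and -0.46 with protein-coding scaling. With quantile normalization it was -0.0. That method gives a row of the same rank in every library the same value, so it cannot show whether the groups differ in such a row. The Zfp949 share of TPM was computed from the deposited values only and was not refitted.

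Depth is unknown, 26 of the 51 genes average under 5 TPM, and each group has 3 libraries. Copies that share sequence depend on how reads were divided.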
